A study of Arabidopsis thaliana with 10 samples.

Results

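MIR845a (AT4G23387) is the microRNA gene with the most small RNA signal in *Arabidopsis thaliana* pollen in most of these libraries, and its small RNAs were followed here in all 10 libraries. It was chosen by its measured level and share of the microRNA signal, so its level, rank, shares and lengths, and the differences of these between groups, are given as a description without a test. It is 1 of 177 microRNA genes and 1 of 33271 loci that were listed in any library. The name of dominant pollen microRNA held in 8 of 10 libraries, in which MIR845a ranked first among microRNA genes. In replicate 2 of both sorted genotypes it ranked second, behind MIR161.

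The study sequenced small RNAs of Col-0 pollen in 5 groups of 2 libraries, from greenhouse plants under a 16 h photoperiod. WT Col-0 pollen was compared with *pLAT52::RTL1-Myc* pollen (labelled VC-RTL1), in which the promoter is preferentially active in the vegetative cell, and with *pMGH3::RTL1-Myc* pollen (labelled SC-RTL1), in which the promoter is active in the male germline. RTL1 is an RNase III-like protein that blocks siRNA production from double-stranded RNA, and the replicates of each construct are independent homozygous lines. The sorted pollen came from plants heterozygous for the *nrpd1a-3* T-DNA allele and for the fluorescent tag FTL1230, a *pLAT52::DsRed* transgene linked to the wild-type NRPD1a allele. DsRed-positive grains gave WT FTL pollen, and DsRed-negative grains gave *nrpd1a-3* FTL pollen, which lacks a functional allele of the largest subunit of RNA polymerase IV but developed on a heterozygous plant. Both sorted genotypes therefore shared a parent plant type and the sorter, which the other 3 groups did not. The methods describe both genotypes as sorted at the same time, so the 4 sorted libraries may stem from 2 sorts, and no label says whether libraries of the same number share one.

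MicroRNAs are cut by DCL1 from hairpin transcripts of their own genes, loaded into ARGONAUTE proteins and guided by base pairing to complementary RNAs. The miR845 family is unusual in that its members resemble the 3′ end of the initiator methionine tRNA, which LTR retrotransposons use as the primer of reverse transcription. They can therefore pair with the primer binding site of such elements, and in *Arabidopsis* pollen they are known for triggering 21- and 22-nt epigenetically activated siRNAs (easiRNAs) from transposons and for a part in the triploid block.

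The sequences below were read from the TAIR10.1 genome and its RefSeq annotation and show how the 2 members of the family differ. The capitals in the first pair mark the seed, bases 2 to 8. Both genes lie on the minus strand of chromosome 4, miR845a at chr4:12217457-12217477 and miR845b at chr4:12214086-12214107, and each mature sequence occurs at 1 place in the genome.
miR845a: cGGCTCTGataccaattgatg
miR845b: tCGCTCTGataccaaattgatg
The seeds differ, and no other annotated mature sequence has either seed. miR845a is 21 and miR845b 22 bases long. The hairpins are 163 and 99 bases long and lie 3238 bases apart. That of MIR845a overlaps no other gene and is 237 bases from the next protein-coding gene, AT4G23390. In the MIR845a hairpin (chr4:12217406-12217568, minus strand) the mature sequence, in capitals, fills bases 92 to 112.
MIR845a hairpin: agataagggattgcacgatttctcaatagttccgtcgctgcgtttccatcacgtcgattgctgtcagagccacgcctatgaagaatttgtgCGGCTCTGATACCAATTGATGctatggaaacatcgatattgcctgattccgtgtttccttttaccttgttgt

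The likeness to the tRNA is a run of identical bases. In the next lines the capitals mark the run that each microRNA shares with the end of the initiator methionine tRNA, of which AT1G42120 (chr1:15730615-15730686, minus strand) is an example.
miR845a: cGGCTCTGATACCAattgatg
miR845b: tcGCTCTGATACCAaattgatg
AT1G42120: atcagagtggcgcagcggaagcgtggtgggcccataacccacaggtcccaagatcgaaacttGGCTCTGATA
miR845a shares 13 bases, its bases 2 to 14, and miR845b shares 12, its bases 3 to 14. The first 10 of the 13 are in the tRNA gene and the last 3 are the CCA added to every tRNA. This end was found in 8 of 23 methionine tRNA genes. The run is shorter than the 18 nt of the shortest reads used here, so no perfectly matching read can fit both a tRNA and a miR845 sequence through it alone.

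The level of MIR845a was 434917 and 382206 RPM in the WT Col-0 libraries. It was 450840 and 602600 RPM in *pLAT52::RTL1* pollen, and 617411 and 859267 RPM in *pMGH3::RTL1* pollen. Here RPM is the unit in which the authors listed 18- to 30-nt signal, and the values of a library sum to between 3743341 and 8672909, so levels are relative to another total than that of the listed reads. The unsorted groups did not overlap, with means of 408561 ± 37272, 526720 ± 107311 and 738339 ± 171018 RPM (SD, n = 2).

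In sorted pollen, the WT FTL libraries had 429793 and 79042 RPM of MIR845a. The *nrpd1a-3* FTL libraries had 252148 and 56465 RPM. In both genotypes replicate 1 was far above replicate 2, by 5.44 times in WT FTL and 4.47 times in *nrpd1a-3* FTL pollen, whereas the replicates of the unsorted groups were within 1.14 to 1.39 times of each other. The means were 254418 ± 248018 and 154307 ± 138369 RPM (SD, n = 2). In the order of the 5 means, SC-RTL1, VC-RTL1, Col-0, WT FTL and *nrpd1a-3* FTL, the first 3 groups differed by more than the larger SD of each neighbouring pair, and the last 3 overlapped with their neighbour. These levels rest on between 65587 and 1010861 reads, and all values of MIR845a in every library lay within 0.001 of a whole number of reads. In bulk pollen, fewer cells of a type and less RNA per cell cannot be told apart.

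**Figure D1:**
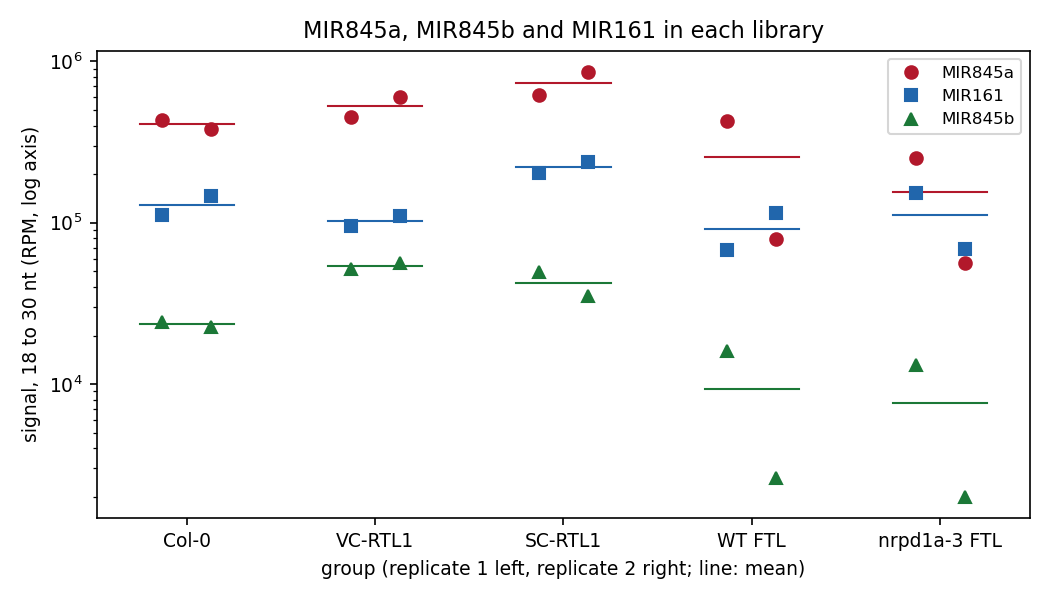
Signal of 18 to 30 nt (RPM, log axis) of MIR845a, MIR161 and MIR845b in each library by group, with a line at each group mean (n = 2). MIR845a lay between 382206 and 859267 RPM in the 6 unsorted libraries and lay below MIR161 in replicate 2 of both sorted genotypes.

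As a share of all microRNA signal, which does not depend on the scaling of a library, MIR845a differed little between the unsorted groups. It made up 46.7% and 32.7% in WT Col-0, 38.0% and 41.1% in *pLAT52::RTL1*, and 36.6% and 45.0% in *pMGH3::RTL1* pollen. The 3 group means were 39.7 ± 9.93%, 39.5 ± 2.22% and 40.8 ± 5.91% (SD, n = 2) and the ranges overlapped, so the order seen in the levels was not seen in the shares. The share was 61.2% and 22.02% in WT FTL and 40.6% and 20.6% in *nrpd1a-3* FTL pollen, which gives both the highest and the lowest of all libraries. The 95% Wilson intervals of these shares were widest in WT FTL replicate 2, from 21.87% to 22.17%, and cover counting error only, so the spread between replicates is the larger error.

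MIR161, whose microRNA targets pentatricopeptide repeat genes, was the next in rank. It held between 7.54% and 12.6% of the microRNA signal in unsorted pollen, 9.62% and 31.9% in WT FTL, and 24.7% and 25.1% in *nrpd1a-3* FTL pollen. Its share was thus higher in replicate 2 of WT FTL pollen and nearly the same in both replicates of the mutant. MIR845a had 2.59 to 5.27 times the signal of the next microRNA gene in unsorted libraries, 6.37 and 0.690 times in WT FTL, and 1.64 and 0.822 times in *nrpd1a-3* FTL pollen. Of the other leading genes, MIR773a averaged 5.09%, MIR156b (targets SPL transcription factors) 3.29%, MIR168a (targets AGO1) 2.78% and MIR160a (targets auxin response factors) 2.73% of the microRNA signal over the 10 libraries. Family members MIR168b, MIR160c and MIR160b averaged 2.47%, 2.37% and 2.32%. Reads with several genomic hits were divided over them, so like genes of a family can split the signal of 1 microRNA. Ranks and counts are therefore of genes, which are not all independent, and not of families. MIR773a was low in the same libraries as MIR845a, at 1.69% and 1.92% in replicate 2 of the sorted genotypes and at least 4.09% in all others, whereas MIR168a was highest there, at 6.23% and 7.36% against at most 2.38% in all others.

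**Figure D2:**
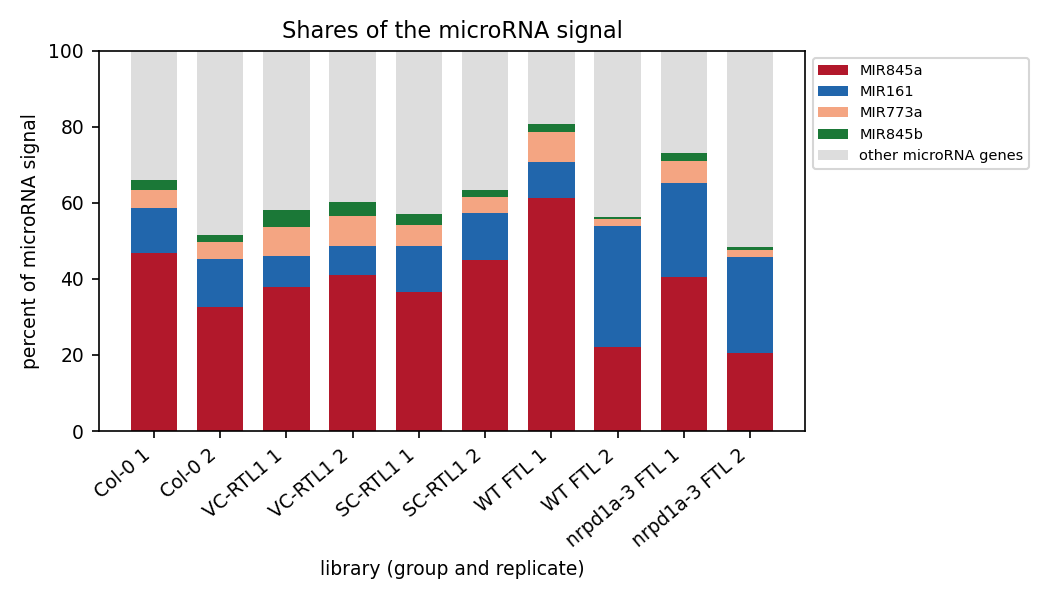
Share of the summed microRNA signal (percent) held by MIR845a, MIR161, MIR773a, MIR845b and all other microRNA genes in each of the 10 libraries. MIR845a ranged from 20.6% to 61.2%, and both libraries near 20% are replicate 2 of a sorted genotype.

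Of all listed signal, MIR845a made up 11.6% and 5.61% in WT Col-0, 8.64% and 9.07% in *pLAT52::RTL1*, and 7.12% and 10.7% in *pMGH3::RTL1* pollen. It made up 8.83% and 1.53% in WT FTL, and 3.33% and 0.826% in *nrpd1a-3* FTL pollen. Among all loci it ranked 3 or 4 in unsorted and 3 to 9 in sorted libraries. Signal from rRNA, tRNA, snRNA and snoRNA genes was between 31.2% and 48.0% of the total in unsorted and between 54.8% and 76.7% in sorted pollen, and tRNA genes alone held 3.72% to 5.51% and 21.4% to 33.7%. Their part in the lower shares was not tested. Without these genes, the share of MIR845a was 9.97% to 17.4% in unsorted libraries, 19.5% and 4.65% in WT FTL, and 11.1% and 3.54% in *nrpd1a-3* FTL pollen, so the gap between the sorted replicates was also seen without them. The 8 tRNA loci that end in the run shared with miR845a gave 555 to 1509 RPM in unsorted and 11127 to 48488 RPM in sorted pollen, with no overlap.

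Almost all MIR845a signal was 21 nt long, the length of the annotated microRNA. The share at 21 nt was 99.5% and 99.1% in WT Col-0, 99.4% and 99.5% in *pLAT52::RTL1*, 99.3% and 99.4% in *pMGH3::RTL1*, 99.0% and 98.8% in WT FTL, and 98.9% and 98.5% in *nrpd1a-3* FTL pollen. The 4 sorted libraries lay below all 6 unsorted ones. Their means were 98.8 ± 0.185% (SD, n = 4) and 99.4 ± 0.138% (SD, n = 6), a difference of -0.566 percentage points. Sorting, experiment and transgene cannot be told apart in this comparison. In wild-type pollen alone, 2 libraries against 2, the difference was -0.436. The share of the microRNA signal was 36.1 ± 19.1% in sorted and 40.02 ± 5.30% in unsorted libraries, and the ranges overlapped.

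The signal outside 21 nt was of different length in the sorted replicates. At 20 nt, replicate 1 of WT FTL and *nrpd1a-3* FTL pollen held 0.691% and 0.655%, above the 0.185% to 0.425% of all other libraries. At 22 nt, replicate 2 of these genotypes held 0.817% and 1.17%, on 536 and 989 reads, above the 0.128% to 0.342% of all other libraries. In RPM the signal at 22 nt was 552 and 646 in WT FTL pollen. The mutant had 513 and 663 RPM, and unsorted pollen had 781 to 1580 RPM. Replicate 2 thus had little more 22-nt signal than replicate 1 and less than every unsorted library, and its larger 22-nt share goes with a lower signal at 21 nt. Lengths of 23 nt and above held at most 0.0119% each. MIR845b had 98.0% to 99.1% of its signal at 22 nt, its annotated length, and 0.726% to 1.74% at 21 nt.

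**Figure D3:**
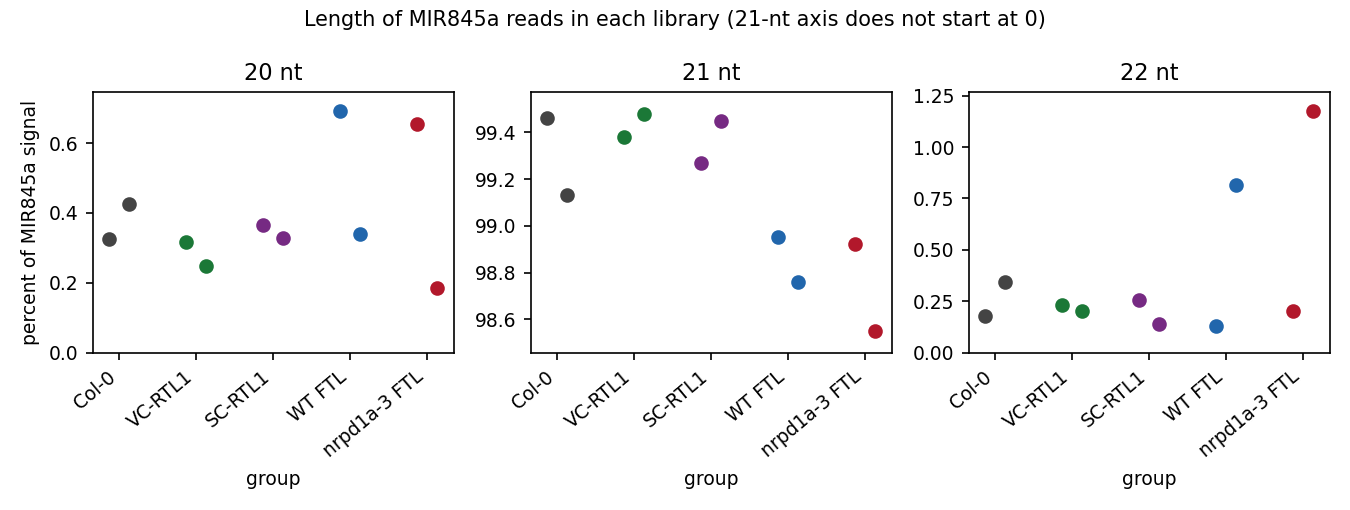
Percent of the MIR845a signal at 20, 21 and 22 nt in each library by group (replicate 1 left, replicate 2 right; the axis for 21 nt does not start at 0). The 4 sorted libraries have less at 21 nt, with the difference at 20 nt in replicate 1 and at 22 nt in replicate 2.

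Differences between groups were estimated with limma on log2(signal + 1), in a fit over all loci that passed a minimum of 12 reads on average, with p-values adjusted over all of them and a threshold of 0.05. For MIR845a the difference is given with its error and no p, since its levels chose it. In *pLAT52::RTL1* against WT Col-0 pollen, in which 1.63% of 11586 loci were raised and 0.155% reduced, the log2 difference of MIR845a was 0.35 (SE 1.12, 95% interval -2.22 to 2.93). In *pMGH3::RTL1* against WT Col-0 pollen, in which 0.475% of loci were raised and 0.958% reduced, it was 0.84 (SE 1.12, 95% interval -1.74 to 3.41). Both lines of each construct were above both WT Col-0 libraries. Between the constructs, in which 1.05% of loci were raised and 2.49% reduced in *pMGH3::RTL1* pollen, its log2 difference was 0.48 (SE 1.12).

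These intervals allow changes of several fold in either direction. The SE of MIR845a was 1.12 with the variance trend over signal level and 0.300 without it. The level differences also depended on the scaling. When each library was scaled to the signal of the microRNA genes other than MIR845a, the log2 difference from WT Col-0 became 7.529e-04 for *pLAT52::RTL1* pollen and 0.07 for *pMGH3::RTL1* pollen.

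Most other microRNA genes also lay above WT Col-0. Of 143 microRNA genes tested, 117 were above WT Col-0 in *pLAT52::RTL1* pollen, 11 of them past the threshold, with 2 reduced, and the median log2 difference was 0.78 against 0.17 over all loci. In *pMGH3::RTL1* pollen 136 were above WT Col-0, 15 past the threshold with 1 reduced, and the median was 1.01 against 0.08 over all loci. Of all 11586 loci tested, 7185 and 6388 lay above WT Col-0 in the 2 comparisons. Past the threshold, 1.63% and 0.475% of all loci were raised and 0.155% and 0.958% reduced. The difference of MIR845a lay below the microRNA median in both comparisons. With 1 library of the compared groups left out, the median was 0.50 to 0.93 for *pLAT52::RTL1* and 0.84 to 1.25 for *pMGH3::RTL1* pollen. The number past the threshold changed with the library left out, over all loci as well as among microRNA genes. Without the variance trend, 1 and 2 microRNA genes were raised, beside 35 and 14 of all loci. The counts also depended on the scaling. Scaled to the microRNA genes other than MIR845a, 7 were raised and 11 reduced in *pLAT52::RTL1* pollen with a median of 0.43, while the germline construct had 11 raised and 1 reduced and a median of 0.25. Scaled to summed signal, 9 and 4 were raised, with medians of 0.56 and 0.28.

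In the sorted pollen, 21.7% of 7382 loci were reduced and 0.0677% were raised in *nrpd1a-3* FTL against WT FTL pollen. MIR845a had a log2 difference of -0.63 (SE 1.52, 95% interval -4.03 to 2.78), above the median of -0.96 over all loci. Among libraries of the same number, the mutant was lower both times. The difference was 0.59 without WT FTL replicate 1 and 0.45 without *nrpd1a-3* FTL replicate 2, fits that set a lone library against the gap between replicates, and 0.59 at the median-ratio scaling. None of 112 microRNA genes passed the limma threshold in either direction, with 0 raised and 2 reduced at an unadjusted p below 0.05 and 0 called by limma-voom, and their median was -0.19. Against WT Col-0, WT FTL pollen had a log2 difference of -1.15 for MIR845a (SE 1.35), in a comparison with 3.4% of 10090 loci raised and 1.26% reduced. It was 0.08 without WT FTL replicate 2 and 0.03 when scaled to the other microRNA genes. Of 133 microRNA genes 18 were reduced and 0 raised by limma in WT FTL pollen, and the median was -1.49. At an unadjusted p below 0.05, 62 were reduced and 1 raised, and by limma-voom 22 were reduced and 0 raised. Scaled to the microRNA genes other than MIR845a, 4 were raised and 4 reduced with a median of -0.32. Scaled to summed signal 27 were reduced, and with a replicate block 25 were. With 1 WT Col-0 or WT FTL library left out, the median was -1.82 to -0.77. The number past the threshold changed with the library left out, among microRNA genes as well as over all loci.

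**Figure D4:**
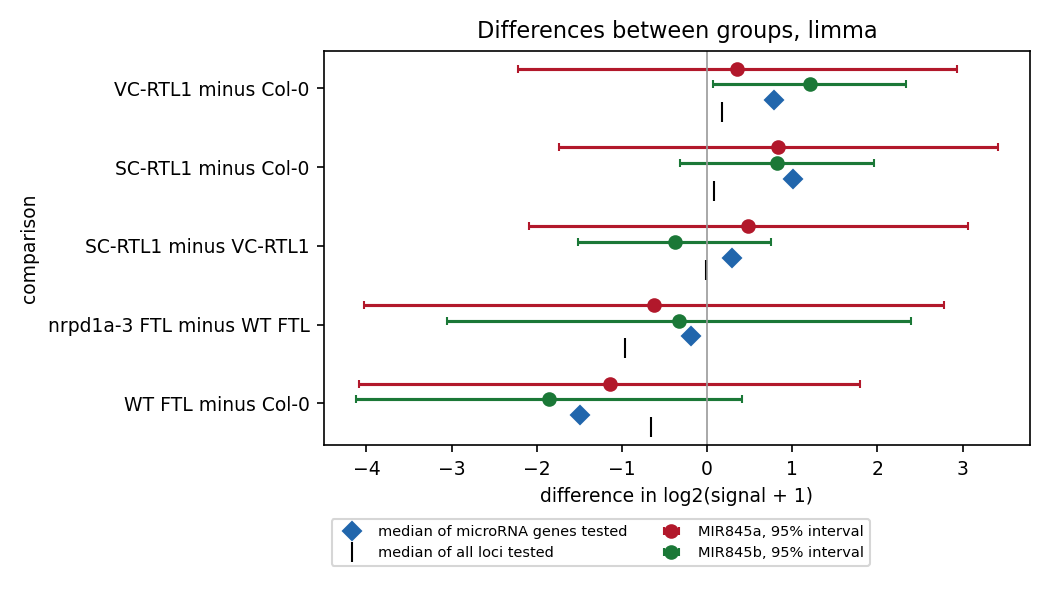
Difference in log2(signal + 1) between groups for MIR845a and MIR845b with 95% intervals from limma, beside the median of all microRNA genes tested and of all loci tested. The difference of MIR845a is smaller than the microRNA median in both RTL1 comparisons with Col-0.

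MIR845b (AT4G23375), the other member of the family, ranked 10 among microRNA genes with an average of 2.34% of their signal. Its level was 24313 and 22655 RPM in WT Col-0, 51507 and 56657 RPM in *pLAT52::RTL1*, and 49153 and 34990 RPM in *pMGH3::RTL1* pollen. WT FTL pollen had 16128 and 2604 RPM of it and *nrpd1a-3* FTL pollen had 13183 and 2008 RPM. In RPM both RTL1 groups lay above WT Col-0 without overlap, and replicate 2 was again low in both sorted genotypes. As a share of the microRNA signal, MIR845b made up 2.61% and 1.94% in WT Col-0 and 4.34% and 3.86% in *pLAT52::RTL1* pollen. It made up 2.92% and 1.83% in *pMGH3::RTL1* pollen, which overlapped with WT Col-0. The log2 difference from WT Col-0 was 1.20 for *pLAT52::RTL1* (SE 0.493, limma adjusted p = 0.2425) and 0.82 for *pMGH3::RTL1* pollen (limma adjusted p = 0.3668), so neither passed the threshold.

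The 2 members did not keep a fixed ratio. MIR845a had 17.9 and 16.9 times the signal of MIR845b in WT Col-0, 8.75 and 10.6 times in *pLAT52::RTL1*, and 12.6 and 24.6 times in *pMGH3::RTL1* pollen. The ratio was 26.6 and 30.4 in WT FTL, and 19.1 and 28.1 in *nrpd1a-3* FTL pollen. The ratio was thus lowest in both *pLAT52::RTL1* libraries, outside the range of WT Col-0, and with 2 libraries against 2 no exact test can go below 0.333.

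Over the 10 libraries, the loci most like MIR845a in log2(signal + 1) among 10089 were TAS1A, ABCI5, AT2G11851, the TE gene AT3G29525 and AT1G06580, with a Pearson r of 0.992, 0.988, 0.987, 0.987 and 0.987. TAS1A is a source of trans-acting siRNAs, and its signal, 97.4% of it at 21 and 22 nt, ran from 1697 to 74267 RPM. These values describe libraries that share depth and, in the sorted pollen, the gap between replicates. Over the 6 unsorted libraries alone r was 0.894 for TAS1A, 0.941 for ABCI5, 0.926 for AT3G29525, 0.876 for AT2G11851 and 0.899 for AT1G06580. MIR845b had an r of 0.954 over all and 0.439 over the unsorted libraries.

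The RTL1 transgenes gave a check of the labels, since small RNAs of RTL1 itself were at 4.30 and 11.9 RPM in WT Col-0, with 93.7 and 23.8 RPM for *pLAT52::RTL1* and 1023 and 302 RPM for *pMGH3::RTL1*. The difference from WT Col-0 passed the threshold in *pMGH3::RTL1* (log2 difference 6.07, limma adjusted p = 0.009596) but not in *pLAT52::RTL1* pollen (2.55, limma adjusted p = 0.1379). Small RNAs of NRPD1A, at 3.62 to 20.6 RPM, do not measure its mRNA and check no label. Of 17 genes of the microRNA and easiRNA machinery, among them DCL1 and the miR168 target AGO1, 12 had enough small RNA to be tested in the RTL1 comparisons with WT Col-0. None passed the limma threshold, and limma-voom called 0 for either construct. Of all 11586 loci, limma called 1.63% raised and 0.155% reduced for *pLAT52::RTL1*, and 0.475% and 0.958% for *pMGH3::RTL1* pollen. With shares this low, 0 of 12 does not show that the machinery was unchanged. At an unadjusted p below 0.05, 0 were raised and 1 reduced for *pLAT52::RTL1* pollen, beside 1400 and 788 of all loci. For the germline construct 1 and 0 were, beside 1695 and 870. In *nrpd1a-3* FTL against WT FTL pollen 6 were tested and 0 passed by limma, at an unadjusted p below 0.05 or by limma-voom. Of all 7382 loci there, 0.0677% were raised and 21.7% reduced by limma, and 159 and 3023 at an unadjusted p below 0.05.

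The site that pairs with the tRNA-like run is TGGTATCAGAGCC for miR845a, and its first 12 bases, TGGTATCAGAGC, pair with both members. The longer site had 118 and the shorter 430 matches in the genome, counted on both strands. The longer was found in 12 of 3895 TE genes (0.308%) and in 15 of 26681 protein-coding genes (0.0562%). The shorter, which includes the longer, was found in 43 TE genes (1.1%) and 35 protein-coding genes (0.131%). In 42 of the 43 TE genes it lay on the gene's own strand, and in 20 within 300 bases of its start. Of the 21 bases of miR845a, 13 to 18 could pair with these windows. A match of letters is not evidence of cleavage.

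The 5 TE genes with the longer site and the most 21- and 22-nt signal in WT Col-0 pollen were AT3G60565, AT1G43060, AT3G42240, AT3G29032 and AT2G07682. Their sites are shown with the bases complementary to both microRNAs in capitals.
AT3G60565 (chr3:22383922-22389906): cgtttcaTGGTATCAGAGCct
AT1G43060 (chr1:16189210-16203832): tatcatgTGGTATCAGAGCca
AT3G42240 (chr3:14397330-14398293): ttagaagTGGTATCAGAGCcg
AT3G29032 (chr3:11016131-11020822): cactataTGGTATCAGAGCct
AT2G07682 (chr2:3292516-3297403): tatcagaTGGTATCAGAGCct
The coordinates are those of the gene. At AT3G60565 the signal of 21 and 22 nt was 126 and 181 RPM in WT Col-0, 78.6 and 81.2 RPM in *pLAT52::RTL1*, and 148 and 172 RPM in *pMGH3::RTL1* pollen. WT FTL pollen had 67.7 and 53.6 RPM there and *nrpd1a-3* FTL pollen had 34.7 and 22.5 RPM. *pLAT52::RTL1* pollen was thus below WT Col-0 and *pMGH3::RTL1* pollen was not.

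Over the 12 TE genes with the longer site, signal of 21 and 22 nt summed to 635 and 1034 RPM in WT Col-0, 419 and 432 RPM in *pLAT52::RTL1*, and 747 and 992 RPM in *pMGH3::RTL1* pollen. The sums were 361 and 412 RPM for WT FTL, then 211 and 240 RPM for *nrpd1a-3* FTL pollen. The *pLAT52::RTL1* libraries lay below those of WT Col-0, while the 24-nt signal of the same genes was 1427 ± 261 RPM in WT Col-0 and 1408 ± 136 RPM in *pLAT52::RTL1* pollen (SD, n = 2). The 3852 TE genes without either site had 119193 and 165331 RPM of 21- and 22-nt signal in WT Col-0. In *pLAT52::RTL1* pollen they had 114302 and 109076 RPM, also below both WT Col-0 libraries. Their 24-nt signal was 208392 ± 45850 and 220610 ± 11637 RPM (SD, n = 2), so the direction was not particular to the 12. The 12 held 0.51% and 0.59% of the 21- and 22-nt signal of all TE genes in WT Col-0. They held 0.35% and 0.37% in *pLAT52::RTL1* and 0.46% and 0.56% in *pMGH3::RTL1* pollen. The reason for the lower share was not tested. The higher sum of the 12 genes in replicate 2 of the sorted genotypes rests on AT3G42240, for which WT FTL pollen had 24.6 and 129.6 RPM and the mutant 34.9 and 180.3 RPM. Without it, a choice made after seeing the values, WT FTL pollen had sums of 336 and 282 RPM and the mutant 176 and 60.1 RPM, and the *pLAT52::RTL1* libraries, at 376 and 378.5 RPM, were still below the 559 and 870.0 RPM of WT Col-0. By limma on 18- to 30-nt signal, 11 of the 12 could be tested. In *pLAT52::RTL1* pollen 0 passed the threshold (0 raised and 1 reduced at an unadjusted p below 0.05, 0 by limma-voom), with a median log2 difference of -0.38 against -0.20 in 3499 TE genes without the site. In *pMGH3::RTL1* pollen 0 passed (0 at an unadjusted p below 0.05, 0 by limma-voom), with a median of 0.11.

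In *nrpd1a-3* FTL against WT FTL pollen, 3 of the 11 were reduced, AT2G15920, AT4G06628 and AT5G27965, with log2 differences of -2.57, -2.61 and -1.97 (limma adjusted p = 0.04427, 0.04427 and 0.04486), against 21.7% of all loci. The median of the 11 was -1.84 and that of 2677 TE genes without the site -2.25, of which 1342 were reduced. These calls lie close to the threshold and depend on the settings. None passed without the filter on low signal, at a pseudocount of 0.1, without the variance trend or at the median-ratio scaling. At each of these settings 0 of all loci were reduced. With a replicate block 9 were reduced, beside 3544 of all loci. With 1 library left out, the median of the 11 was -2.21 to -1.19, and whether they passed depended on the library. At 24 nt the 12 genes had 836 ± 12.4 RPM of signal in WT FTL pollen against 281 ± 7.54 RPM in the mutant (SD, n = 2). TE genes without either site were lower in the mutant too, at 130460 ± 25310 against 44471 ± 2951 RPM (SD, n = 2).

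Among the 43 TE genes with the shorter site, a group singled out after its values were seen was reduced with the germline construct. In *pMGH3::RTL1* pollen 7 of 38 tested were reduced against WT Col-0, beside 0.958% of all loci and 55 of 3499 TE genes without the site. These are AT2G01029, AT2G01037, AT2G12930, AT4G08111, AT5G28110, AT5G28120 and AT5G29075, with log2 differences from -2.12 to -1.51. In *pLAT52::RTL1* pollen their differences were 0.10 to 0.24 and none of the 7 passed the limma threshold, with adjusted p between 0.5922 and 0.8768. Between the constructs all 7 were reduced in *pMGH3::RTL1* pollen (log2 difference -2.26 to -1.74), beside 2.49% of all loci and 84 of 3499 TE genes without the site. The same *pMGH3::RTL1* libraries had singled out the 7, so this is no separate support. With any 1 unsorted library left out, the median of the 7 against WT Col-0 was -2.00 to -1.86. Whether the 7 passed depended on the library left out, and the number of reduced loci overall changed too. With only these 2 groups in the fit 2 of the 7 passed, beside 46 reduced among all loci. At 21 nt alone 3 of the 7 passed, with a median of -1.57, beside 25 reduced among all loci. Between the constructs, the median was -2.27 to -1.99 with 1 library of either left out. In *nrpd1a-3* FTL pollen AT4G08111, AT5G28110 and AT5G28120 were reduced, by log2 differences of -2.39, -3.13 and -3.12, and the other 4 did not pass. In that comparison 21.7% of all loci and 1342 of 2677 TE genes without the site were reduced, so these calls are not particular to the 7. Of the 7, 0 passed there without the filter, at a pseudocount of 0.1, without the variance trend or at the median-ratio scaling. At each of these settings 0 of all loci were reduced. With a replicate block 5 of the 7 were reduced, beside 3544 of all loci.

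The windows of these 7 genes end in the same 19 bases, and no other of the 39 windows read does, in a comparison made after the 7 were known.
AT2G01037 (chr2:58705-64872): ttcaagtTGGTATCAGAGCat
AT2G01029 (chr2:28465-38652): cacaagtTGGTATCAGAGCat
They thus hold the site of both members in full but not the longer site of miR845a. At AT2G01037 the signal of 21 and 22 nt was 1431 and 2527 RPM in WT Col-0, 1416 and 1920 RPM in *pLAT52::RTL1*, and 477 and 462 RPM in *pMGH3::RTL1* pollen. WT FTL pollen had 1424 and 761.9 RPM and *nrpd1a-3* FTL pollen 1573 and 459.7 RPM. The *pMGH3::RTL1* libraries lay below every WT Col-0, *pLAT52::RTL1* and WT FTL library. The genes are not independent, since AT2G01037 shares 46.9% of its 21-base words with AT5G29075 and 19% with AT2G12930, and reads with several genomic hits were divided over them.

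**Figure D5:**
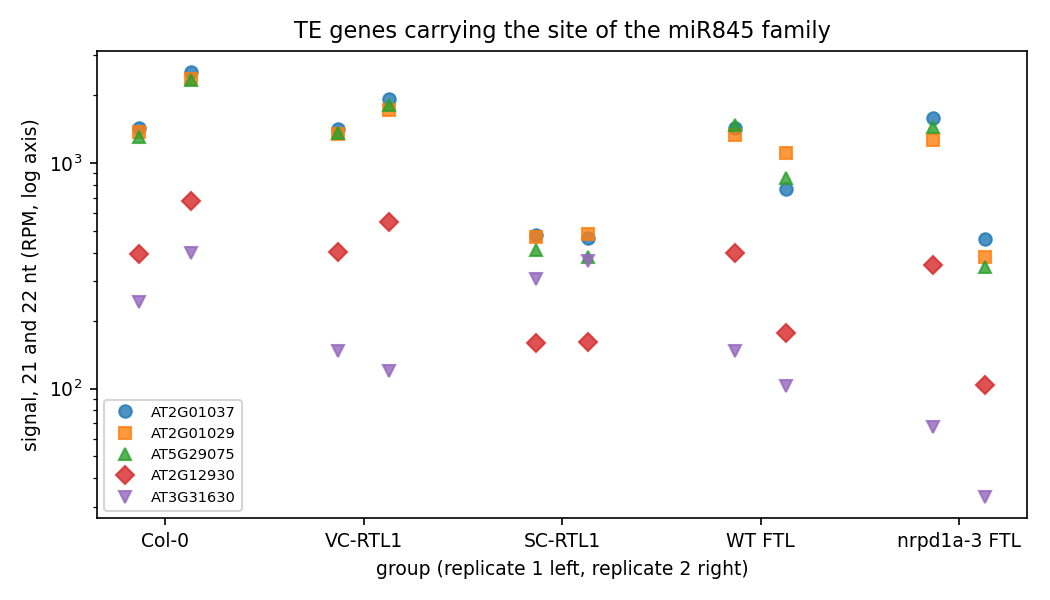
Signal of 21 and 22 nt (RPM, log axis) in each library at the 5 TE genes with the shorter site that have most of it in Col-0. AT2G01037, AT2G01029, AT5G29075 and AT2G12930 are low in both SC-RTL1 libraries, and AT3G31630, whose site has another flank, is not.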

How the data were processed

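Small RNA libraries were read single-end over 50 nt, and the study's methods name Bowtie and TAIR10 for the mapping, in which perfect matches were required. The signal values that the authors deposited give, for each locus and read length, reads divided by the count of places they map to and expressed as RPM. The methods name the filtered, perfectly matching reads of 18 to 30 nt as the total behind this scaling. A single read was worth 0.430 to 1.46 RPM, which implies totals of 684589 to 2324263, whereas the loci listed held 4296912 to 10349598 weighted reads in each library. Lengths above 30 nt, listed in 2 libraries, were left out and held no MIR845a signal.

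Signal of 18 to 30 nt was summed per locus. Hit-weighted values are no counts, so limma 3.58.1 in R 4.3.3 was run on log2(signal + 1) with a variance trend, over loci that averaged 12 or more weighted reads, in fits of the 6 unsorted, the 4 sorted or all 10 libraries, with Benjamini-Hochberg adjustment over all loci. Fold changes are on this log2 scale. The libraries are labelled as biological replicates, and those of each RTL1 construct are independent lines. Planned limma and permutation p-values (SciPy 1.17.1) for the level, share and lengths of MIR845a are not given, because these values chose it. Python 3.11.15 with pandas 2.3.3 and NumPy 2.4.6 handled the tables. The fits were tested on simulated data.

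Sequences come from TAIR10.1 with RefSeq annotation, which names AT4G23375 as MIR845b, whereas the plan held another locus for it. The member, gene lists and tests were chosen with earlier results of these data known. Named genes are the MIR845 family, the 5 next microRNA genes by share, the 5 loci most correlated with MIR845a, RTL1, NRPD1A, neighbours, initiator tRNA genes and the 5 TE genes with a site and most 21- and 22-nt signal in Col-0. The list of TE genes with the 12-base site was added after seeing the data. Alternatives were 4 scalings, pseudocounts of 0.1 and 5, limma-voom, a fit without the filter or the trend, other lengths and fits, a replicate block and each library left out.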

Additional observations from a re-analysis of the deposited data

How the results depend on the processing

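The level of MIR845a kept its direction against WT Col-0 with both constructs under all alternatives run, and its sign changed under some in the other 3 comparisons. With summed signal as the scale, the log2 difference between *pMGH3::RTL1* and *pLAT52::RTL1* pollen was -0.0238. In *nrpd1a-3* FTL against WT FTL pollen it was 0.59 at the median-ratio scaling, and between -1.85 and 0.59 with 1 library left out. In WT FTL against WT Col-0 it was 0.0328 at the scale of other microRNA genes, and between -2.37 and 0.0761 with 1 library left out (the highest without WT FTL replicate 2). The cause of these shifts was not tested. Where this left a group with 1 library, that library was assumed to vary like the others. The share at 21 nt differed by -0.436 percentage points between sorted and unsorted wild-type pollen alone. The sorted minus unsorted difference in the share of microRNA signal was 1.91 percentage points in wild type alone, and between -12.3 and 1.26 with 1 library left out, with opposite signs without replicate 2 of either sorted genotype (0.797 without that of WT FTL). As a share of all listed signal, MIR845a averaged 13.4% in WT Col-0, 13.8% in *pLAT52::RTL1*, 15.5% in *pMGH3::RTL1*, 12.1% for WT FTL and 7.30% for *nrpd1a-3* FTL once structural RNA genes were dropped, and 15.6%, 16.8%, 15.8%, 12.3% and 5.12% of 20- to 22-nt signal, since both drop part of the total. Of 20- to 24-nt signal, 99.5% was at 21 nt in *pLAT52::RTL1* and 99.0% in WT FTL pollen. Of 174 alternatives, 152 kept their direction and their side of the threshold or moved within 1 SD. This count does not measure robustness, because many of the alternatives could not come out otherwise. Leaving out 1 of 2 libraries always moves a group mean by less than 1 SD. A replicate block, or leaving out a library of a group not compared, leaves the log2 difference as it was.

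With a replicate block the log2 differences of MIR845a were the same, at 0.35, 0.84, 0.48, -0.63 and -1.15, while its SE in *nrpd1a-3* FTL against WT FTL pollen went from 1.52 to 0.396 and the loci called reduced there from 1600 to 3544. Deviations of same-numbered libraries correlated at 0.571 there and between -0.00409 and 0.284 in the other comparisons, from 2 pairs each, and no label states a pairing, although both genotypes were sorted at the same time. The count of reduced loci in that comparison was 0 at a pseudocount of 0.1, without a filter, without the variance trend or at the median-ratio scaling. In the RTL1 comparisons with WT Col-0, raised loci went from 189 and 55 to 35 and 14 without the trend, and reduced loci from 18 and 111 to 163 and 1623 at the scale of other microRNA genes. With 2 libraries a group the intervals given are wide, and they are no limit of detection. Their width also depends on the variance trend, as the SE of MIR845a against WT Col-0 was 1.12 with it and 0.300 without it in both RTL1 comparisons.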
